A study of Mus musculus with 6 samples.

Results

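The genes described here are the 10 nerve injury and regeneration genes Atf3, Sox11, Jun, Gap43, Sprr1a, Csf1, Gadd45a, Ecel1, Flrt3 and Stmn4. They were taken by name from a table of 54532 mouse genes, and all 10 were present and passed the filter on low values. Sprr1a and Ecel1 passed it only through the Hdac2 cKO libraries, the group where they were higher. When a peripheral axon is cut, the cell body of the sensory neuron switches to a growth programme: transcription factors such as ATF3, JUN and SOX11 are induced, growth cone and cytoskeletal proteins follow, and secreted signals such as CSF1 reach macrophages and microglia. Histone deacetylases oppose the acetylation that goes with active chromatin, and deacetylase activity is known to shape this programme in injured sensory neurons. The labels name no nerve lesion, so the comparison is between ganglia without a labelled injury.

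Bulk RNA-seq was read from whole dorsal root ganglia (DRG), which hold the cell bodies of sensory neurons with their glia, of C57BL/6 mice aged 8 weeks. In the conditional knockout (Hdac2 cKO, 3 libraries) Cre recombinase is driven by the Advillin promoter, active in primary sensory neurons, and both Hdac2 alleles are floxed (Adv-Cre+/hdac2-flop++). The controls (WT, 3 libraries) were littermates that carried the floxed alleles (hdac2-flop++) and no Cre. The groups thus also differed by Cre, and the sources used here do not say how many mice went into a library. The p-values thus measure only the spread between these libraries. The Y-linked sums that follow differ within each group, so the libraries of a group did not all come from the same mice. How much of the spread is technical is not known. Sex was not balanced between groups, as read from the Y-linked genes Ddx3y, Eif2s3y, Kdm5d and Uty. Their sum was 0, 3993 and 0 normalised read counts in Hdac2 cKO 1, 2 and 3. In WT 1, 2 and 3 it was 7.06, 3650 and 5698.

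Reads assigned to genes ranged from 27787407 to 42070531 in the Hdac2 cKO libraries and from 18943595 to 31338593 in the WT libraries. Levels are given as normalised read counts, that is, read counts over the size factor of their library. Differences are given as log2 fold changes, the mean of log2 (value + 1) in Hdac2 cKO minus that in WT, a scale that understates changes of low genes. Hdac2 itself stood at 372 to 535 normalised read counts in Hdac2 cKO, against 1715 to 3498 in WT, with a log2 fold change of -2.47 (SE 0.31, limma adjusted p = 0.927). Of 18410 genes tested, limma called 0 (percent called 0) at the adjusted p threshold of 0.05, edgeR also called 0, and 341 genes (1.85%) had an unadjusted p under 0.05. DESeq2 called 28 genes (0.152%), and 79 (0.429%) with the replicate number as a block, none of them among the 10 injury genes. Without both libraries numbered 3 limma called 5 genes (0.0272%), again none of the 10. The sensory neuron markers were all detected and their sums overlapped between groups, at 286237 to 370862 in Hdac2 cKO and 277988 to 433713 in WT. Among these 9 markers 3 did not overlap, beside 4.63% higher and 3.91% lower without overlap over all genes tested. Avil was lower in Hdac2 cKO, with a log2 fold change of -0.68 (SE 0.21), and Scn9a and Isl1 were higher, at 0.92 (SE 0.39) and 0.37 (SE 0.23). Avil is the Advillin gene, whose promoter drives Cre in Hdac2 cKO only. For Avil, the presence of Cre and the loss of Hdac2 thus cannot be told apart. Skeletal muscle markers did not overlap in sum, at 106 to 1147 normalised read counts in Hdac2 cKO and 1690 to 9459 in WT, with 8 of 8 lower. Nor did myelinating Schwann cell markers, at 156475 to 224929 in Hdac2 cKO and 359323 to 371262 in WT, with 7 of 7 lower. No gene of either list was at 0 in any library. In whole ganglia, fewer cells of a type and less RNA per cell cannot be told apart. The part of muscle and myelin RNA in the differences below was not tested.

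Of the 10 injury genes, 3 were higher in every Hdac2 cKO library than in any WT library, namely Sprr1a, Ecel1 and Flrt3, and Stmn4 was lower in every one. Over all genes tested, 4.63% were higher and 3.91% lower without overlap. The other 6, among them Atf3 and Jun, overlapped between groups. The median log2 fold change of the 10 genes was 0.21, against 0.06 over all genes tested. Of the 10, 7 were higher and 3 lower, beside 55.3% higher over all genes tested. A stricter filter (50 or more in at least 3 libraries) left out Sprr1a and Ecel1. With it the median was 0.11, and 5 genes were higher. None of the 10 passed limma's test over all genes. An unadjusted p under 0.05 was found for 3 of them, Sprr1a, Flrt3 and Stmn4. The WT values of Sprr1a and Ecel1 alone would not have met the filter, so their place in these counts is a description only. With a term for sex in the fit the log2 fold changes of the 4 genes without overlap were 2.24 for Sprr1a, 1.28 for Ecel1, 0.91 for Flrt3 and -0.56 for Stmn4, and limma called 0 genes.

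**Figure D1:**
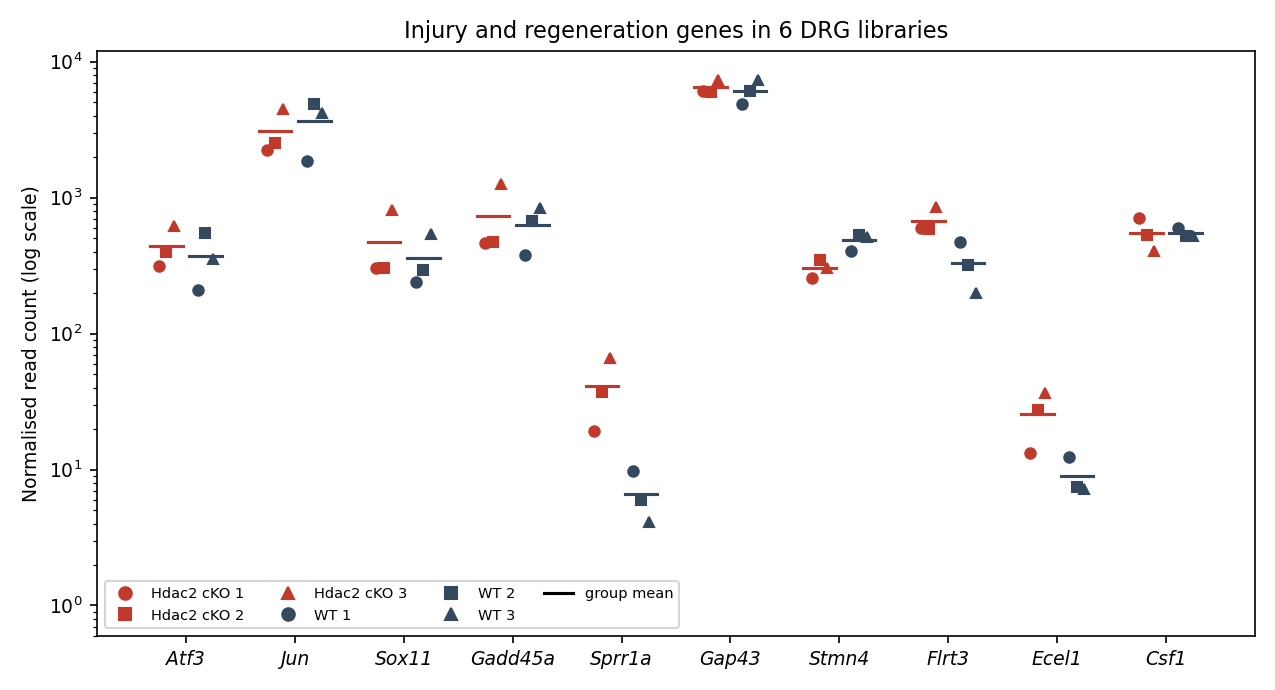
Normalised read count on a log scale for each gene in each library, with the 3 Hdac2 cKO libraries in red to the left of the 3 WT libraries in dark grey, marker shapes for library numbers and lines for group means. Sprr1a, Flrt3 and Ecel1 points of Hdac2 cKO all lie above those of WT, Stmn4 points lie below, and the points of the other 6 genes overlap.

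The transcription factors of the programme overlapped between groups. Atf3, a bZIP factor nearly silent in intact sensory neurons and a standard marker of axotomy, stood at 316, 395 and 613 normalised read counts in Hdac2 cKO 1, 2 and 3 and at 207, 552 and 356 in WT 1, 2 and 3. WT 1 was lowest and Hdac2 cKO 3 highest. The means were 442 ± 154 in Hdac2 cKO and 372 ± 173 in WT (SD, n = 3 each), and the log2 fold change was 0.30, with a 95% interval from -0.69 to 1.30 (limma adjusted p = 0.927). Without WT 1 it turned to -0.06.

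Jun, the AP-1 factor needed for efficient axonal regeneration, stood at 2229.8, 2514 and 4466 normalised read counts in Hdac2 cKO 1, 2 and 3 and at 1856, 4911 and 4192 in WT 1, 2 and 3. The lowest and the highest library were both WT. The log2 fold change was -0.20, with a 95% interval from -1.21 to 0.80 (limma adjusted p = 0.941), and it was 0.07 without WT 2. The antisense gene Junos overlaps Jun and was lower in every knockout library, at 28.3 to 49.7 normalised read counts in Hdac2 cKO and 56.6 to 189 in WT. Without a stated strand setting, its reads and those of Jun cannot be told apart where they overlap.

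Sox11, a SOXC factor that promotes regrowth of sensory axons, stood at 303, 303 and 812 normalised read counts in Hdac2 cKO 1, 2 and 3 and at 241, 295 and 539 in WT 1, 2 and 3. The library numbered 3 was highest in each group, and the groups overlapped. The log2 fold change was 0.32, with a 95% interval from -0.82 to 1.46 (limma adjusted p = 0.928), and it was -0.15 without Hdac2 cKO 3 but 0.18 without both libraries numbered 3. Hdac2 cKO was above WT at each of the 3 library numbers, which are not known to mark pairs. With the replicate number as a block limma gave an adjusted p of 0.702. Gadd45a, a growth arrest and DNA damage gene induced in axotomised neurons, had a like order, at 461, 471 and 1252 normalised read counts in Hdac2 cKO 1, 2 and 3 and at 378, 673 and 840.2 in WT 1, 2 and 3. Its log2 fold change was 0.12, with a 95% interval from -0.997 to 1.23 (limma adjusted p = 0.967). It turned to -0.36 without Hdac2 cKO 3 and to -0.22 without WT 1. An uncharacterised transcript on the other strand, E230016M11Rik, overlaps Gadd45a and held 51.1 to 134 normalised read counts in Hdac2 cKO and 81.2 to 269 in WT.

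Atf3, Jun, Sox11 and Gadd45a each had their lowest value in WT 1, as did Gap43, so that WT 1 was lowest for 5 of the 10 genes, against 10.1% of all genes tested. Hdac2 cKO 3 was highest for 7 of the 10, against 14.9% of all genes tested. Immediate early genes of tissue handling (Fos, Fosb, Egr1, Junb, Ier2 and Npas4) also put WT 1 lowest for 5 of 6. Hdac2 cKO 3, however, was highest for only 1 of these 6. They summed to 2580, 5399 and 11125 normalised read counts in Hdac2 cKO 1, 2 and 3 and to 1423, 15661 and 5988 in WT 1, 2 and 3. The order of Atf3 over the 6 libraries matched that of this sum, with Hdac2 cKO 3 and WT 2 on top in both, except that these 2 changed places and so did Hdac2 cKO 2 and WT 3. The part of handling in these levels was not tested.

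Gap43, an abundant growth cone phosphoprotein, stood at 6112, 5972 and 7324 normalised read counts in Hdac2 cKO 1, 2 and 3 and at 4905, 6056 and 7276 in WT 1, 2 and 3. WT 1 was below every knockout library, and the other 5 libraries overlapped. The means were 6469 ± 744 in Hdac2 cKO and 6079 ± 1186 in WT (SD, n = 3 each), and the log2 fold change was 0.10, with a 95% interval from -0.41 to 0.61 (limma adjusted p = 0.942). Without WT 1 it was -0.04.

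Stmn4, a stathmin that binds tubulin, was the 1 gene of the 10 lower in every Hdac2 cKO library. Its level was 258, 348 and 304 normalised read counts in Hdac2 cKO 1, 2 and 3 and 404, 533 and 514 in WT 1, 2 and 3. The means were 303 ± 45.1 in Hdac2 cKO and 484 ± 69.6 in WT (SD, n = 3 each), a ratio of 0.626. The log2 fold change was -0.67 (SE 0.25), with a 95% interval from -1.26 to -0.08. It had an unadjusted limma p of 0.0302 and did not pass over all genes (adjusted p = 0.927), and an exact permutation test (two-sided) gave p = 0.1, the lowest value possible with 3 libraries a group. Over 19 alternative settings the log2 fold change of Stmn4 ranged from -0.80 to -0.56.

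Sprr1a, a small proline-rich protein of cornified epithelia that axotomised sensory neurons also make and that promotes their outgrowth, had the largest log2 fold change of the 10. Its level was 19.2, 37.3 and 66.4 normalised read counts in Hdac2 cKO 1, 2 and 3 and 9.71, 5.96 and 4.09 in WT 1, 2 and 3. Those values rest on 19, 38 and 95 reads in Hdac2 cKO and on 11, 4 and 4 reads in WT, so counting error is large in WT. No WT value reached the filter's 10, so Sprr1a was tested only because it was higher in Hdac2 cKO. Its p-values are thus no independent support. The means were 41.0 ± 23.8 in Hdac2 cKO and 6.58 ± 2.86 in WT (SD, n = 3 each), a ratio of 6.23. The log2 fold change was 2.37 (SE 0.77), with a 95% interval from 0.56 to 4.18, an unadjusted limma p of 0.0171 and an adjusted p of 0.927. The exact permutation test gave p = 0.1 here too. Without both libraries numbered 3 the log2 fold change was 1.69.

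Markers of epidermis, a tissue rich in Sprr1a, overlapped between groups. The basal keratin gene Krt5 was at 0 in 5 of 6 libraries and at 2.98 normalised read counts in WT 2. The 6 epidermal markers summed to 201 to 358 normalised read counts in Hdac2 cKO and 206 to 618 in WT. The related genes Sprr2a1, Sprr2a2 and Sprr2a3 were at 0 in all 6 libraries, and Sprr1b had 0.983 normalised read counts in Hdac2 cKO 2 and 0 in the others.

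Flrt3, a leucine-rich repeat membrane protein that binds Unc5 and latrophilin receptors and is induced in injured sensory neurons, stood at 593, 591 and 847 normalised read counts in Hdac2 cKO 1, 2 and 3 and at 472, 319 and 199 in WT 1, 2 and 3. The lowest knockout library was above the highest WT library. The means were 677 ± 147 in Hdac2 cKO and 330.0 ± 137 in WT (SD, n = 3 each), a ratio of 2.05. The log2 fold change was 1.10 (SE 0.36), with a 95% interval from 0.26 to 1.94, an unadjusted limma p of 0.0172 and an adjusted p of 0.927, with p = 0.1 in the exact permutation test. With array weights, which let libraries that vary less count for more and rested the WT mean mostly on WT 2 (weight 4.17, against 0.670 and 0.101 for WT 1 and 3), limma called Flrt3 higher (log2 fold change 0.86, adjusted p = 0.0369), the 1 injury gene among 567 genes called (3.08%). Leaving out WT 3 gave a log2 fold change of 0.78, and without both libraries numbered 3 it was 0.61. Flrt3 lies on the minus strand within the plus-strand gene Macrod2, which held 1600 to 1752 normalised read counts in Hdac2 cKO and 816 to 1778 in WT, so that its groups overlapped, with WT 3 lowest for both genes.

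Ecel1, a membrane metallopeptidase known as a marker of damaged neurons, was low throughout. Its level was 13.1, 27.5 and 36.4 normalised read counts in Hdac2 cKO 1, 2 and 3 and 12.4, 7.44 and 7.15 in WT 1, 2 and 3. Hdac2 cKO 1 and WT 1 were nearly level, at 13 and 14 reads, so that the absence of overlap turns on less than 1 normalised read count. The ratio of means was 2.86 and the log2 fold change 1.34 (SE 0.74), with a 95% interval from -0.40 to 3.09 (limma adjusted p = 0.927). The interval includes 0. Of the WT libraries only WT 1 reached the filter's 10, so Ecel1 too was tested through its Hdac2 cKO values.

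Csf1, the cytokine that injured sensory neurons release to drive microglia and macrophages, stood at 708, 533 and 404 normalised read counts in Hdac2 cKO 1, 2 and 3 and at 598, 526 and 523 in WT 1, 2 and 3. The knockout libraries held both the highest and the lowest value. The means were 548 ± 153 in Hdac2 cKO and 549 ± 42.6 in WT (SD, n = 3 each), and the log2 fold change was -0.04, with a 95% interval from -0.66 to 0.59 (limma adjusted p = 0.979). It was 0.16 without Hdac2 cKO 3 and 0.03 without WT 1. Its receptor gene Csf1r, a macrophage marker, stood at 1110.4, 858 and 364 in Hdac2 cKO 1, 2 and 3 and at 956, 654 and 254 in WT 1, 2 and 3. In Hdac2 cKO, Csf1 and Csf1r thus had the same order of libraries. They did so in WT too, but there Csf1 was nearly level in WT 2 and WT 3, at 526 and 523. The 9 macrophage markers summed to 2042 to 4844 normalised read counts in Hdac2 cKO and 1929 to 4273 in WT. The part of macrophage RNA in the level of Csf1 was not tested.

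**Figure D2:**
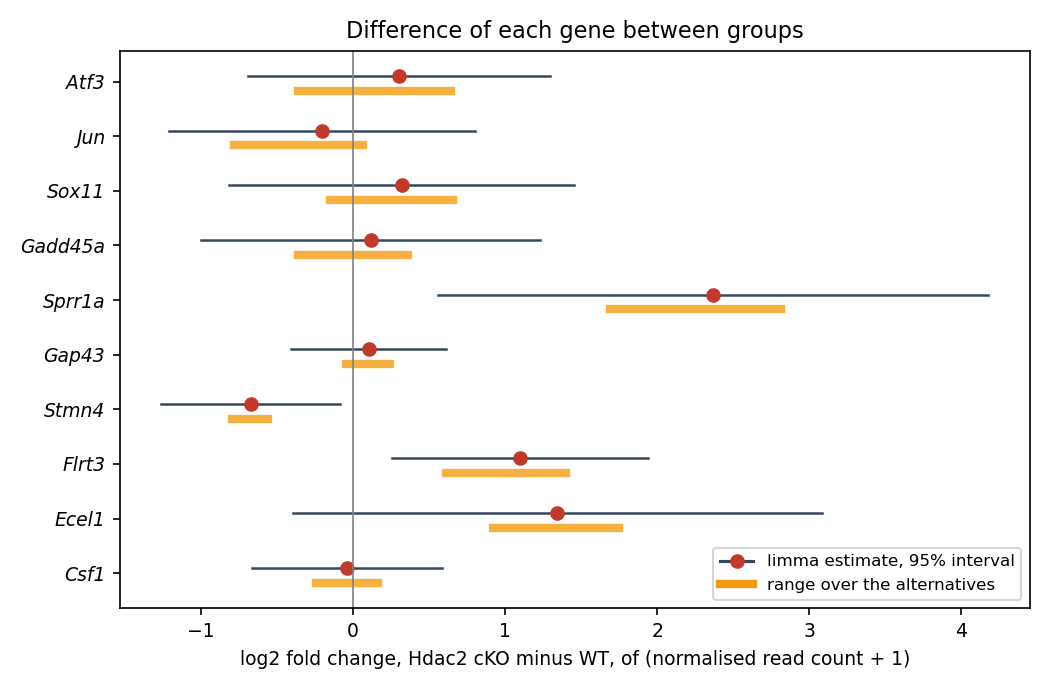
Log2 fold change of each gene, Hdac2 cKO minus WT, as the limma estimate (red point) with its 95% interval (dark line), and below it the range over all alternative settings (orange bar). The intervals of Sprr1a, Flrt3 and Stmn4 lie to 1 side of 0, and the ranges of Sprr1a, Flrt3, Ecel1 and Stmn4 do not cross it.

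Levels can be compared between genes only per length of exon. Per kilobase of exon, Gap43 was highest of the 10, at a mean of 4248 normalised read counts in Hdac2 cKO and 3991 in WT, and Jun followed at 963 in Hdac2 cKO and 1145 in WT. Ecel1 was lowest, at 7.34 per kilobase in Hdac2 cKO and 2.57 in WT. Atf3, at 205 per kilobase in Hdac2 cKO and 173 in WT, was thus detected in every library of both groups. Per kilobase, Sprr1a came near Sox11 in the knockout, at 50.9 for Sprr1a and 56.9 for Sox11, and lay well under it in WT, at 8.17 for Sprr1a and 43.1 for Sox11.

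The stretches upstream of the genes were read to show which hold binding letters of the AP-1 and ATF factors to which Jun and Atf3 belong. RefSeq (GRCm38.p6, the assembly of mm10) gave 250 bases upstream of the start for 8 of the 10 genes; those of Gap43 and Stmn4 were not used here. The AP-1 letters TGANTCA were found upstream of 1 of these 8, Sprr1a, which holds them at both -146 to -140 and -116 to -110 from the start, and in 6.75% of 32851 RefSeq promoters. TGACATCA, the letters of a known element of the Jun promoter that Jun and ATF2 bind, was searched after the promoters had been seen. It was found upstream of Jun, Sox11, Flrt3 and Sprr1a, 4 of the 8, and in 2.93% of all promoters. The match in Jun was fixed in advance, as the letters come from its promoter. The 4 of 8 are thus no test against that share. The letters lay at -45 to -38 in Jun and -41 to -34 in Flrt3. In Sox11 they lay at -42 to -35 as their reverse complement TGATGTCA, and in Sprr1a at -207 to -200. The full CRE letters TGACGTCA were in none of the 8 and in 1.55% of all promoters. Other variants of these letters were not searched, so a stretch without a match may still hold some. Read afterwards, the Atf3 stretch holds TTACGTCA and the Jun stretch TTACCTCA. Both strands were searched, the motifs do not overlap in these stretches, and a match is a description of letters and not a measured site. Sprr1a and Flrt3 were higher in every knockout library, whereas Jun and Sox11, with the same letters, overlapped between groups. The 4 stretches that hold TGACATCA are given 5′ to 3′ with the matches in capitals: Sprr1a from chr3:92485882-92486131, Flrt3 from chr2:140671477-140671726, Jun from chr4:95052223-95052472 and Sox11 from chr12:27342719-27342968, all on the minus strand.
Sprr1a: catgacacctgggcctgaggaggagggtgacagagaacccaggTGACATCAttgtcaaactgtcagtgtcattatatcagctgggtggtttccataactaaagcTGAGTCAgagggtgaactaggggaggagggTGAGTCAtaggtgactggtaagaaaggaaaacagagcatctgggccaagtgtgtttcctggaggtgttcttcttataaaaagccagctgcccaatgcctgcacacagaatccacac
Flrt3: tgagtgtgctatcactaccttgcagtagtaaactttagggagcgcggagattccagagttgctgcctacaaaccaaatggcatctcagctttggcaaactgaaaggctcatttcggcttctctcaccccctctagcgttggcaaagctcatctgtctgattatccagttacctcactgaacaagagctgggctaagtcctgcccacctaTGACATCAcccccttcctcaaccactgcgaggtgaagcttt
Jun: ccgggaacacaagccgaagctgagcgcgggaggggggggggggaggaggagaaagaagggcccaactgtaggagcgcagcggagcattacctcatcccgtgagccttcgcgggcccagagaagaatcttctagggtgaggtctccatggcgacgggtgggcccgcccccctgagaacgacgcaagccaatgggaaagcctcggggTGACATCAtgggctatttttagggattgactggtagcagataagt
Sox11: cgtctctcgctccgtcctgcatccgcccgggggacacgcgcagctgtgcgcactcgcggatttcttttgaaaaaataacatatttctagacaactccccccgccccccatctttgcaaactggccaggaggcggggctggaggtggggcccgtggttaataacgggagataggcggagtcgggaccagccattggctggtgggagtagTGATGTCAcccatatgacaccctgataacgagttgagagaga

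**Figure D3:**
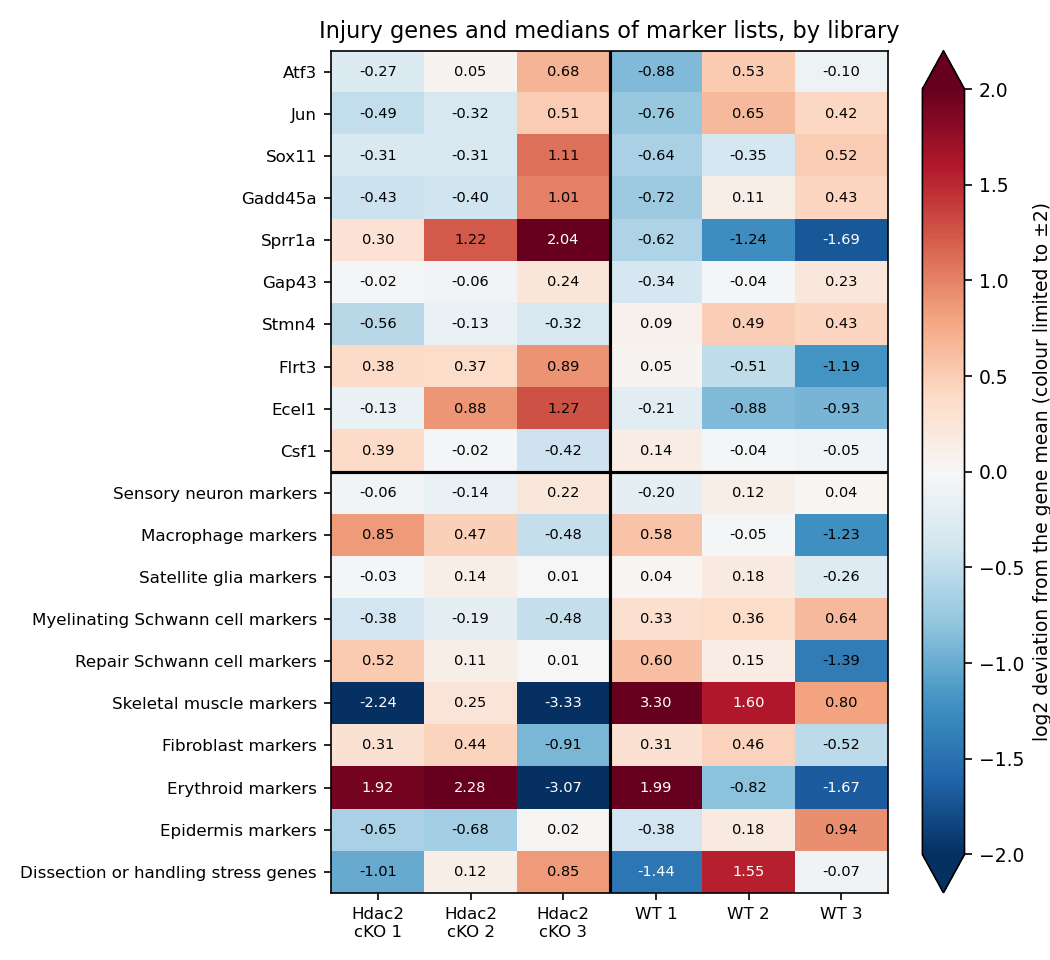
Log2 deviation of each injury gene from its own mean in each library (upper rows), and the median deviation over the tested genes of each marker list (lower rows), with Hdac2 cKO libraries left and WT libraries right. Sprr1a runs from 2.04 in Hdac2 cKO 3 to -1.69 in WT 3, while handling stress genes peak at 1.55 in WT 2 and at 0.85 in Hdac2 cKO 3.

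Of 32 paralogs and partners of the 10 genes, 28 were tested. Of these, 9 were higher and 19 lower, beside 55.3% higher over all genes tested. Their median log2 fold change was -0.29, against 0.06 over all genes tested. None passed, none had an unadjusted p under 0.05, and 1 of the 28 did not overlap between groups, beside 4.63% higher and 3.91% lower without overlap over all genes tested. That gene was Stmn2, the stathmin that maintains axons, at 48003, 52956 and 50473 normalised read counts in Hdac2 cKO 1, 2 and 3 and at 45251, 46057 and 33222 in WT 1, 2 and 3. Its log2 fold change of 0.30 (SE 0.21) ran opposite to that of Stmn4 at -0.67. Stmn1 and Stmn3 had log2 fold changes of -0.73 and -0.50 and overlapped, with WT 3 highest for both.

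Within the FLRT family, the log2 fold changes were 0.62 (SE 0.31) for Flrt1 and 0.27 (SE 0.48) for Flrt2, beside 1.10 for Flrt3. The FLRT binding partners Unc5b, Adgrl3 and Robo1 had log2 fold changes of -0.42, -0.30 and 0.05 and overlapped between groups. Relatives of Ecel1, the metallopeptidases Ece1, Ece2 and Mme, had -0.04, -0.47 and 0.36. Among bZIP partners of Jun and Atf3, Jund had -1.03 (SE 0.67) and Fosl1 -1.06 (SE 0.54), while Jdp2 had 0.38, Fos 0.46, Fosl2 0.09 and Junb -0.29. The SOXC factors Sox4 and Sox12 had -0.48 and -0.36, with WT 3 highest for both, as it was for Sox11 within WT. Gadd45b, Gadd45g and their partner Gadd45gip1 had -0.29, -0.55 and -0.71. The growth cone proteins Basp1, Marcks and Marcksl1, which resemble GAP43 in function, had -0.09, -0.35 and -0.12. Il34, the other ligand of the CSF1 receptor, had -0.29, Csf1r itself 0.37 and Tyrobp, a microglial and macrophage adaptor, -0.13.

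**Figure D4:**
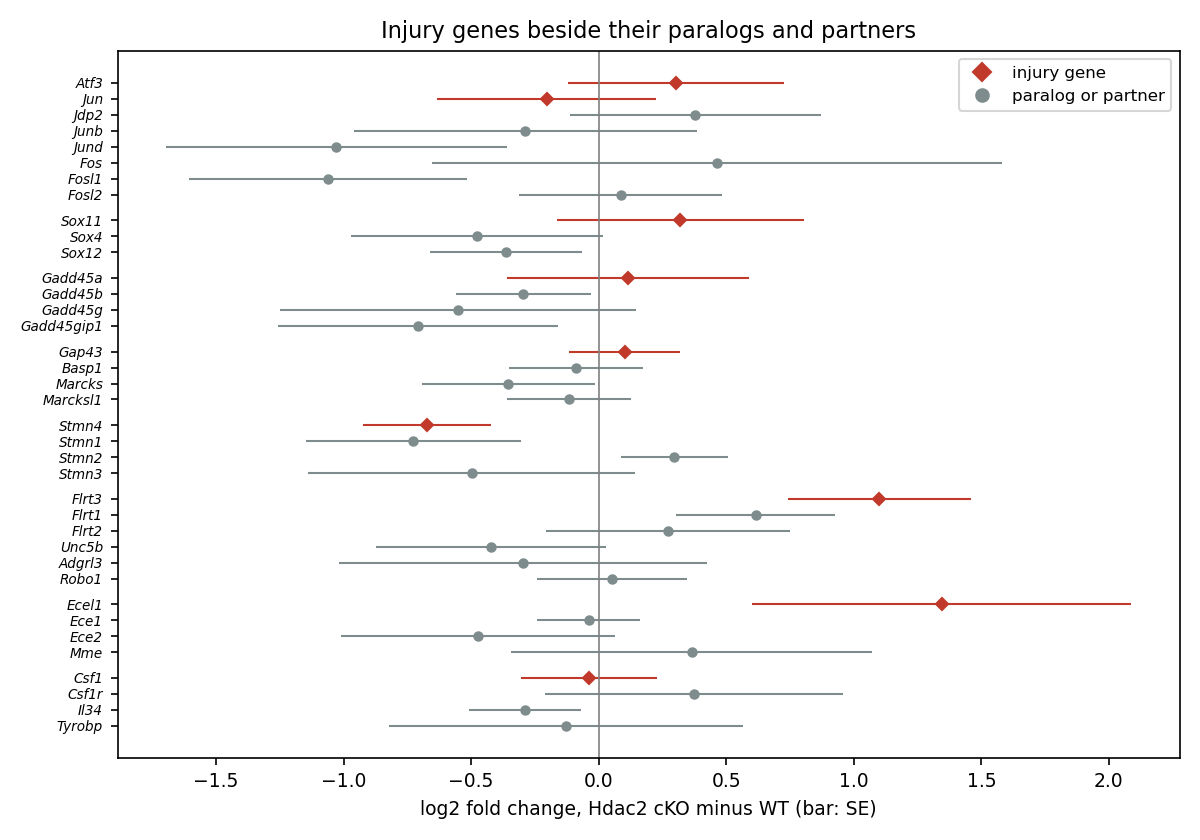
Log2 fold change, Hdac2 cKO minus WT, with its SE as a bar, for each injury gene except Sprr1a (red diamond) and the tested paralogs and partners grouped under it (grey circles). Sprr1a is not drawn, as none of its relatives was tested. Flrt3 at 1.10 and Ecel1 at 1.34 lie right of all their relatives, and Stmn4 at -0.67 lies near Stmn1 at -0.73.

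A wider list of 70 injury-associated genes, made of transcription factors, neuropeptides, cytokines, cytoskeletal genes and regulators of axon growth, gave 63 tested genes, of which 39 were higher and 24 lower. Over all genes tested 55.3% were higher. The median log2 fold change of the list was 0.10, against 0.06 over all genes tested, and 0.20 without Hdac2 cKO 3. None passed limma's test over all genes. Of the 63, 9 were higher and 1 lower without overlap, beside 4.63% higher and 3.91% lower over all genes tested. An unadjusted limma p under 0.05 was found for 6, beside 1.85% of all genes tested. Both counts include Npy, which was tested only through its Hdac2 cKO values, so they are a description only. The smallest p among higher genes were those of Nts, Osmr and Klf7. Nts, the neuropeptide neurotensin, stood at 559.7, 862 and 2078 normalised read counts in Hdac2 cKO 1, 2 and 3 and at 248, 182 and 354 in WT 1, 2 and 3. Klf7, a factor that promotes axon growth, stood at 6112, 5187 and 6297 in Hdac2 cKO 1, 2 and 3 and at 4793, 3370 and 2711 in WT 1, 2 and 3. Fold changes on the log2 scale were 1.22 (SE 0.38) for Osmr, the oncostatin M receptor, and 0.73 (SE 0.25) for Klf7. Both Nts and Osmr also mark itch-sensing neurons. Among lower genes, Lif, an injury cytokine, stood at 33.3, 30.5 and 25.9 normalised read counts in Hdac2 cKO 1, 2 and 3 and at 56.5, 55.1 and 245 in WT 1, 2 and 3, with WT 3 far above the other libraries and a log2 fold change of -1.59. Hbegf, an EGF receptor ligand, and Lmo7 had -0.37 (SE 0.27) and -0.45 (SE 0.33). Injury peptide Gal, usually low in intact neurons, overlapped at 554, 497 and 639 in Hdac2 cKO 1, 2 and 3 and 409, 371 and 611 in WT 1, 2 and 3.

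Likeness to Atf3 was measured as the root mean square distance of log2 values, each centred on the gene's own mean, over the 6 libraries and 18410 genes. The 5 nearest genes were 2810405F17Rik at 0.113, Msh5 at 0.140, Tmem51os1 at 0.151, Itga10 at 0.155 and Mir8099-2 at 0.194. Among the injury genes Jun came nearest to Atf3, at 0.292 and rank 39, followed by Gadd45a at 0.370 and rank 242. Sprr1a was farthest, at 1.24 and rank 15740. The distances are a description, and no chance level was computed.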

How the data were processed

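RNA-seq libraries of dorsal root ganglia, 3 Hdac2 cKO and 3 WT, were grouped and numbered by sample title. Per the submitters' processing notes, the tools were HISAT2, SAMtools, featureCounts and DESeq2, with build mm10. For tool versions, the annotation and the strand setting, nothing is stated (not given in the sources used here). The deposited signal values were read counts that the authors had scaled by 1 factor for each library. Whole reads were recovered from 100% of them, within 0.01, by taking the smallest value in a column above 0 as 1 read. GENCODE M21 (GRCm38) matched 54495 of 54532 identifiers and gave names, coordinates and exon lengths.

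The main test was limma 3.58.1 (R 4.3.3) on log2 (value + 1), with intensity trend and robust variances, two-sided and Benjamini-Hochberg adjusted over 18410 genes, those with values of 10 or more in 3 or more libraries. The alternatives were edgeR 4.0.16, DESeq2 1.42.0 and limma-voom on recovered reads, TMM scaling, pseudocounts of 0.5 and 5, no filter and a filter of 50, a replicate block, a term for sex read from Y-linked genes, array weights, and libraries left out. The fold changes of the main limma fit were checked on simulated counts with known changes and the same spread for all genes. Those counts held no library that varied more than the others, so the check does not cover libraries as uneven as these. The alternatives and the permutation test were not checked on simulated counts. Exact permutation tests were two-sided and used scipy 1.17.1.

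Deviations of same-numbered libraries from their group means correlated by 0.401, 0.147 and 0.422, whereas Hdac2 cKO 2 and WT 1 correlated by 0.342. The labels state no pairs, and these correlations do not settle whether the numbers mark any. The main test used no pairing, and the replicate number entered as a block only in alternative settings. Of counts of 1 to 20 reads, 42.4% were even in WT 2, against 60.2 to 64.4% in the other libraries; the effect on the values is not known.

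Members, gene lists, tests and the naming rule were chosen with earlier results of these data known. The rule named the 10 injury genes, Hdac2, all paralogs and partners, the 3 genes of smallest p in each direction in the wider list, and the 5 genes nearest Atf3. Junos, E230016M11Rik, Macrod2, Gal, Avil, Scn9a and Isl1, and genes in the closing section, were named after their values were seen.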

Additional observations from a re-analysis of the deposited data

How the results depend on the processing

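No injury gene passed over all genes in 18 of 19 alternative settings; with array weights 1 did, Flrt3. Sprr1a, Ecel1 and Flrt3 kept a higher value and Stmn4 a lower one in every setting in which they were tested; a filter of 50 left out Sprr1a and Ecel1. The count of genes called over all genes was 28 with DESeq2, 79 with DESeq2 and the replicate block, 567 with array weights, 5 without both libraries numbered 3, and 0 in the other settings, limma with the replicate block included. The block changed no call of an injury gene. The log2 fold change of Hdac2 was called at -2.54 with DESeq2, -2.49 with DESeq2 and the replicate block, and -2.13 with array weights. The cause of these differences was not tested.

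With array weights the log2 fold change turned to -0.36 for Atf3, -0.33 for Gadd45a and 0.12 for Csf1. Without both libraries numbered 3 it was -0.11 for Gadd45a and 0.13 for Csf1. Leaving out 1 library at a time gave ranges from -0.061 to 0.64 for Atf3, from -0.15 to 0.66 for Sox11, from -0.63 to 0.069 for Jun, from -0.043 to 0.24 for Gap43, from -0.36 to 0.36 for Gadd45a and from -0.24 to 0.16 for Csf1. The median of the 10 genes then ranged from -0.01 to 0.44, and that of the wider list from 0.043 to 0.20. The reads behind Sprr1a and Ecel1 are few, and their spread between libraries is wide. With a term for sex the log2 fold change of Jun was -0.04, against -0.20 without it.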

Other observations

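Beside Nts, Osmr and Klf7, 6 other genes of the wider injury list were higher in Hdac2 cKO without overlap, and none passed limma's test over all genes. Npy, a neuropeptide that large sensory neurons make after axotomy, stood at 22.2, 39.3 and 40.6 normalised read counts in Hdac2 cKO 1, 2 and 3 and at 8.82, 10.4 and 0 in WT 1, 2 and 3. Cd44, a hyaluronan receptor, stood at 7603, 8005 and 8062 in Hdac2 cKO 1, 2 and 3 and at 6102, 5186 and 5408 in WT 1, 2 and 3. Both had an unadjusted limma p under 0.05. Of the WT libraries only WT 2 reached the filter's 10 for Npy, so Npy was tested through its Hdac2 cKO values.

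The other 4 did not reach an unadjusted p of 0.05. Cacna2d1, a calcium channel subunit raised in sensory neurons after nerve injury, stood at 6326, 7000 and 6579 normalised read counts in Hdac2 cKO 1, 2 and 3 and at 5862, 4708 and 3725 in WT 1, 2 and 3. Adcyap1, which encodes the neuropeptide PACAP, had a log2 fold change of 0.36 (SE 0.19). Lifr, the receptor of LIF, had 0.38 (SE 0.21), and the transcription factor gene Stat3 had 0.21 (SE 0.17). These 6 genes were named after their values were seen.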
